A study of Danio rerio with 12 samples.

Results

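Enzymes that place or remove small chemical groups on histones were followed through the zebrafish heart after amputation. They were chosen by name: every gene of the per-library tables whose symbol starts with kmt, kdm, hdac, sirt and a digit, ezh, suv39, setd or dot1, which gave 68 of 25281 genes. Among them are 28 methyltransferases, 20 demethylases, 13 hdac genes and 7 sirtuins. The question put to the data was where kmt5ab and hdac7b, a histone H4 lysine 20 methyltransferase gene and a class IIa histone deacetylase gene, stand among their relatives. The authors had tested both by qPCR as candidates from their RNA comparison of 3 dpa with uninjured hearts, and reported both as increased. A high place of the pair in the same libraries therefore follows in part from that choice. RNA from adult ventricles, pooled over several hearts for each condition, was sequenced in 10 libraries. Experiment 1 gave 1 library each of dusp6 mutant and WT ventricles at 3 days post amputation (dpa) and 1 each without injury. Experiments 2, 3 and 4 each gave 1 library of foxm1 mutant and 1 of WT ventricles at 3 dpa. For the injury comparison the dusp6 mutant and the WT library of experiment 1 were joined at each stage, so that a stage holds 2 libraries of different genotype. WT fish carried the AB* background, and dusp6 mutants were pt30a/pt30a. The label of the foxm1 mutants was sa10708/sa10708 in experiment 2, sa10708/sa10709 in experiment 3 and sa10708/sa10710 in experiment 4. The authors describe the sequenced foxm1 mutants as sa10708/sa10708 and name no other foxm1 allele. Whether the differing labels mark different alleles is not given in the sources used here. All fish were adults of 6 months to 1 year. For 7 dpa, WT and dusp6 mutant samples are labelled without an experiment number. Only a group mean was used here, for which no sample is named.

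As background, a histone tail carries methyl groups on several lysines, and each position has its own writers. Kmt2 and Setd1 proteins act on histone H3 lysine 4 at active genes, Suv39h and Setdb1 proteins on H3 lysine 9 in silent chromatin, Ezh proteins on H3 lysine 27 as part of Polycomb repressive complex, Dot1l on H3 lysine 79, and Kmt5 proteins on H4 lysine 20. Kdm proteins remove methyl groups, and Hdac and Sirt proteins remove acetyl groups, the sirtuins with NAD as a cofactor. The adult zebrafish ventricle regrows after amputation through division of cardiomyocytes near the wound. The mutants carried mutations in the genes of Foxm1, a forkhead transcription factor, or of Dusp6, a phosphatase of the kinase ERK. The name rule also takes in enzymes with other main substrates, among them setd3 (actin in mammals) and the mitochondrial sirtuins sirt3, sirt4 and sirt5. Classes below were likewise assigned by name, so a gene need not have the activity of its class.

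Libraries held 54229254 to 67236702 gene reads in experiment 1 and 17654534 to 21245883 in experiments 2 to 4. The 68 genes together took 0.198% to 0.286% of these reads, and 66 of them had reads in every library. Transcript levels of the mutated genes did not check the genotype labels: foxm1 stood at 5.79, 6.58 and 5.75 TPM (a level corrected for transcript length and library size) in foxm1 mutants, against 4.46, 4.43 and 5.32 TPM in WT, and dusp6 at 101 TPM (uninjured) and 207 TPM (3 dpa) in dusp6 mutants, against 49.5 TPM (uninjured) and 172 TPM (3 dpa) in WT. Ventricles at 3 dpa differed from uninjured ventricles in their cell type markers. The summed level of 8 genes of cycling cells was 254 and 416 CPM (counts relative to library size, scaled between libraries) at 3 dpa, against 47.3 and 40.4 CPM uninjured, that of 8 fibroblast and epicardial genes was 3727 and 10881 CPM, against 516 and 393 CPM, and that of 6 cardiomyocyte genes was 28899 and 15660 CPM, against 46438 and 46537 CPM. No gene of these lists was at 0 reads, and all 8, all 8 and all 6 of them had both 3 dpa libraries on that side of both uninjured ones. The 5 erythrocyte genes, all higher, summed to 14732 and 23836 CPM at 3 dpa, against 3910 and 5056 CPM uninjured, and 7 of 8 macrophage genes were higher. Mitochondrial genes took 12.57% and 8.001% of reads at 3 dpa, against 16.93% and 16.03% uninjured. In bulk ventricles fewer cells of a type and less RNA per cell cannot be told apart, and the part of cell composition in the values below was not tested.

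In uninjured ventricles the median of the 68 genes was 6.74 TPM (mean of the dusp6 mutant and WT libraries). The highest were sirt2, a tubulin and histone deacetylase, at 37.7 TPM, hdac9b, a class IIa deacetylase, at 26.5 TPM, kmt5aa, an H4 lysine 20 monomethyltransferase, at 25.6 TPM, ezh1, the H3 lysine 27 methyltransferase of resting cells, at 23.7 TPM, and kdm6bb, an H3 lysine 27 demethylase, at 23.1 TPM. At the other end, 4 genes were below 1 TPM: hdac7b at 0.806 TPM, kmt5ab at 0.231 TPM, and setd1bb and suv39h1a at 0. kmt5ab and hdac7b therefore ranked 66th and 65th of 68 by level in uninjured ventricles, and 28th and 29th at 3 dpa. The spread of TPM across all 10 libraries, which differ in stage, genotype and experiment, was taken for the enzymes only, with no share of all genes. Highest over lowest TPM was under 2-fold for 42 of the 66 genes with reads throughout, 2- to 3-fold for 15 and at least 3-fold for 9. These 9 were kmt5ab (64.7-fold), hdac7b (20.8-fold), kdm6ba (5.37-fold), ezh2 (4.63-fold), kdm2ab (4.45-fold), hdac10 (4.05-fold), kdm7aa (3.93-fold), hdac12 (3.29-fold) and sirt7 (3.18-fold). kmt5aa, the paralogue of kmt5ab, had the smallest spread of the 66, with 22.8 to 28.3 TPM and a highest over lowest of 1.24.

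The comparison of 3 dpa with uninjured ventricles asked which enzymes differ early in regeneration. A few enzymes sat far above the uninjured level, and most stood near it, on a side that depended on the scaling. Of 66 genes tested, both 3 dpa libraries lay above both uninjured ones for 11 and below both for 33, while 22 overlapped. Over all 20408 genes tested these orders took 28.0% (above) and 27.7% (below). The log2 fold change was positive for 19 and negative for 47, with a median of −0.22 and an interquartile range of −0.41 to 0.02, against a median of −0.00 and a range of −0.40 to 0.51 over all genes. This split moves with the scaling. Without TMM (the trimmed mean scaling between libraries) the all-gene median was 0.35, the enzymes split into 44 positive and 22 negative with a median of 0.13, and 29 lay above and 8 below both uninjured libraries (45.8% and 12.4% of all genes). Relative to the all-gene median, 47 of the 66 lay below it under either scaling, 39 with log2(TPM + 1) and 43 with log2(TPM + 0.1). The enzyme median minus the all-gene median was −0.21 after TMM and −0.22 without it, and −0.05 and −0.16 in the 2 TPM settings. The 11 enzymes above both uninjured libraries were above them also by library size alone and on TPM, whereas of the 33 below, 6 were below under all 3 scalings: kmt2a, setd1a, kdm6al, hdac5, hdac11 and sirt5. The larger departures were few: 5 genes had a log2 fold change of at least 0.59 (22.9% of all genes) and 4 of −0.59 or lower (16.9% of all genes). By edgeR's quasi-likelihood test, 0 of the 66 passed an adjusted p of 0.01 in either direction (0.00% of all genes higher and 0.00% lower). At an unadjusted p of 0.05, 4 were higher (kmt5ab, hdac7b, ezh2 and kdm2ab; 13.6% of all genes) and 4 lower (kmt2a, setd1a, kmt2d and kdm6al; 7.38% of all genes). DESeq2, edgeR's likelihood ratio test and a fit over all 10 libraries each called 2, kmt5ab and hdac7b, both higher. These settings called 6.17%, 5.50% and 5.94% of all genes higher and 1.36%, 0.755% and 1.14% lower. With 2 libraries a stage, each of another genotype and none labelled as a separate culture or clutch, these p-values measure the spread between pooled samples.

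**Figure D1:**
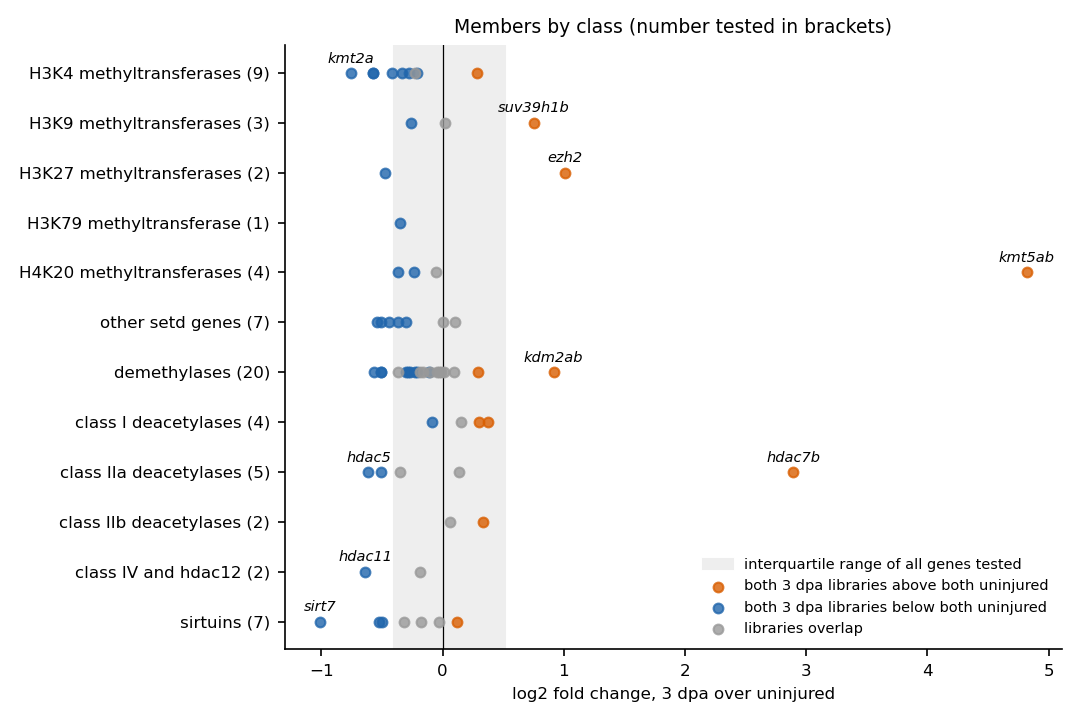
Log2 fold change at 3 dpa over uninjured ventricles (x axis) of the 66 enzymes tested, one point a gene, grouped by substrate or class on the y axis; orange points have both 3 dpa libraries above both uninjured ones (11 genes), blue points both below (33 genes), and the grey band spans the interquartile range of all genes, −0.40 to 0.51. kmt5ab at 4.82 and hdac7b at 2.89 stand apart from their classes, while 7 of 9 H3 lysine 4 methyltransferases are blue after TMM scaling (2 of 9 on TPM). Over all genes 27.7% lay below both uninjured libraries after TMM and 12.6% on TPM.

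Among the 4 H4 lysine 20 methyltransferases, kmt5ab stood apart at 3 dpa under every scaling tried. As the gene was a candidate from the same comparison, its place is not an independent result. Kmt5a enzymes place the first methyl group, and their abundance is tied to the cell cycle in mammalian cells, whereas Kmt5b and Kmt5c add further methyl groups. kmt5ab (ENSDARG00000104114, GRCz11 chromosome 5, 69785990 to 69793797, plus strand) had 4.75 CPM in dusp6 mutant and 10.9 CPM in WT ventricles at 3 dpa, against 0.303 CPM in dusp6 mutant and 0.248 CPM in WT ventricles without injury. Its log2 fold change of 4.82 (SE 0.57, adjusted p = 0.0674, edgeR) was the 71st largest of all genes tested. The uninjured values rest on 17 and 15 reads and the 3 dpa values on 274 and 723. Over all libraries 1.63% of its reads were intronic, and 100% of them were placed uniquely. kmt5aa had 42.2 and 35.5 CPM at 3 dpa, against 44.3 and 47.2 CPM uninjured, a log2 fold change of −0.24 that became 0.11 without TMM. kmt5b gave 32.2 and 30.9 CPM at 3 dpa, against 31.9 and 33.5 CPM uninjured (log2 fold change −0.05). kmt5c had 26.4 and 25.5 CPM at 3 dpa, against 32.1 and 34.6 CPM uninjured, and its log2 fold change was −0.37. The 3 relatives thus stayed within 0.37 of the uninjured level on the log2 scale, and after TMM kmt5aa and kmt5c lay below both uninjured libraries. On TPM and by library size alone kmt5aa and kmt5b lay above both and kmt5c overlapped. kmt5aa overlaps snrnp35 and kmt5c overlaps ppp1caa in the annotation, so some of their reads may belong to these neighbours; kmt5ab and hdac7b overlap no other gene. The 4 kmt5 genes summed to 53.2 and 65.1 TPM at 3 dpa, against 43.4 and 46.9 TPM uninjured.

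The 5 class IIa deacetylase genes gave a second case of one gene apart from its relatives. That gene, hdac7b, was likewise a candidate from the same comparison. These proteins bind Mef2 transcription factors and repress their targets, shuttle between nucleus and cytoplasm, and have little deacetylase activity of their own. hdac7b (ENSDARG00000073850, GRCz11 chromosome 6, 38905047 to 38930726, minus strand) had 9.48 CPM in dusp6 mutant and 27.2 CPM in WT ventricles at 3 dpa, against 2.92 CPM in dusp6 mutant and 2.02 CPM in WT ventricles without injury. The log2 fold change was 2.89 (SE 0.58, adjusted p = 0.0998, edgeR). Of its reads 34.4% were intronic over all libraries, and counting exon reads only left the log2 fold change at 2.89. It was 1.94 without the WT 3 dpa library. hdac7a, its paralogue, was lower in both libraries, with 7.63 and 7.15 CPM at 3 dpa, against 9.74 and 11.2 CPM uninjured (log2 fold change −0.50). hdac5 had 5.88 and 5.33 CPM at 3 dpa, against 8.05 and 9.08 CPM uninjured (log2 fold change −0.61), and hdac4 overlapped between stages at 0.14. hdac9b, the most abundant of the class, gave 94.6 CPM in the dusp6 mutant and 56.0 CPM in WT at 3 dpa, against 99.8 and 92.7 CPM uninjured, so that the stages overlapped (log2 fold change −0.35). Of the 6 mef2 genes, the partners of this class, none was higher and 4 were lower in both libraries at 3 dpa (3 by library size alone), with a median of −0.77. Over all genes 27.7% were lower after TMM and 12.4% by library size alone.

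**Figure D2:**
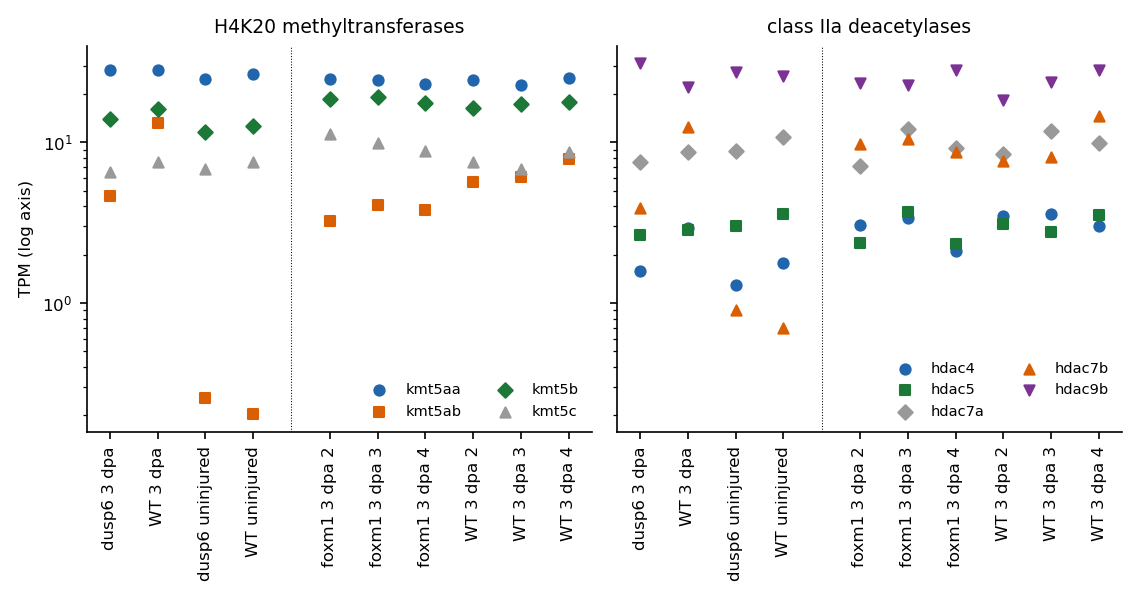
TPM on a log axis in each of the 10 libraries, for the 4 H4 lysine 20 methyltransferase genes (left panel) and the 5 class IIa deacetylase genes (right panel); the dotted line separates experiment 1 from experiments 2 to 4, and each point is 1 library. kmt5ab was at 4.66 and 13.2 TPM at 3 dpa, against 0.257 and 0.204 TPM uninjured, and hdac7b at 3.91 and 12.4 TPM, against 0.910 and 0.703 TPM, whereas their relatives varied less.

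The 3 dpa libraries of experiments 2 to 4 held both transcripts at similar levels. kmt5ab was at 3.22 to 4.07 TPM in foxm1 mutants and 5.62 to 7.88 TPM in WT, and hdac7b at 8.72 to 10.4 TPM in foxm1 mutants and 7.64 to 14.6 TPM in WT. All 6 values of each gene exceeded both uninjured values, although no uninjured library was made in those experiments, and stage and experiment cannot be told apart there. Within experiment 1 the 3 dpa level was lower in the dusp6 mutant library. kmt5ab was 15.7-fold above uninjured in dusp6 mutants and 43.9-fold in WT, and hdac7b 3.25-fold in dusp6 mutants and 13.5-fold in WT. The difference rests on 1 library a genotype and stage and has no test. A smaller excursion in the dusp6 mutant was general: 53 of 66 enzymes moved in the same direction in both genotypes (80.3%, and 72.6% of all genes), and of these 45 moved further in WT (84.9%, and 75.9% of all genes). Summed cycling markers at 3 dpa were likewise 254 CPM in the dusp6 mutant and 416 CPM in WT, and summed fibroblast and epicardial markers 3727 CPM in the dusp6 mutant and 10881 CPM in WT, and the part of these differences in the enzyme values was not tested.

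Shares within paralogue pairs show the same values without reference to other genes. kmt5ab made up 14.2% and 31.8% of the summed TPM of kmt5aa and kmt5ab at 3 dpa, against 1.03% and 0.763% uninjured. hdac7b made up 34.1% and 58.6% of its pair with hdac7a, against 9.34% and 6.10%, and so passed its paralogue in 1 of the 2 libraries at 3 dpa. ezh2 made up 13.2% and 22.3% of ezh1 and ezh2, against 7.67% and 6.02%. kdm2ab was 52.8% and 60.0% of its pair with kdm2aa, against 35.0% and 38.2%, whereas kmt2cb (39.0% and 47.9%, against 36.8% and 35.0%) shifted less. setdb1b overlapped between stages, with 51.0% and 61.8% at 3 dpa, against 48.4% and 52.2% uninjured.

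**Figure D3:**
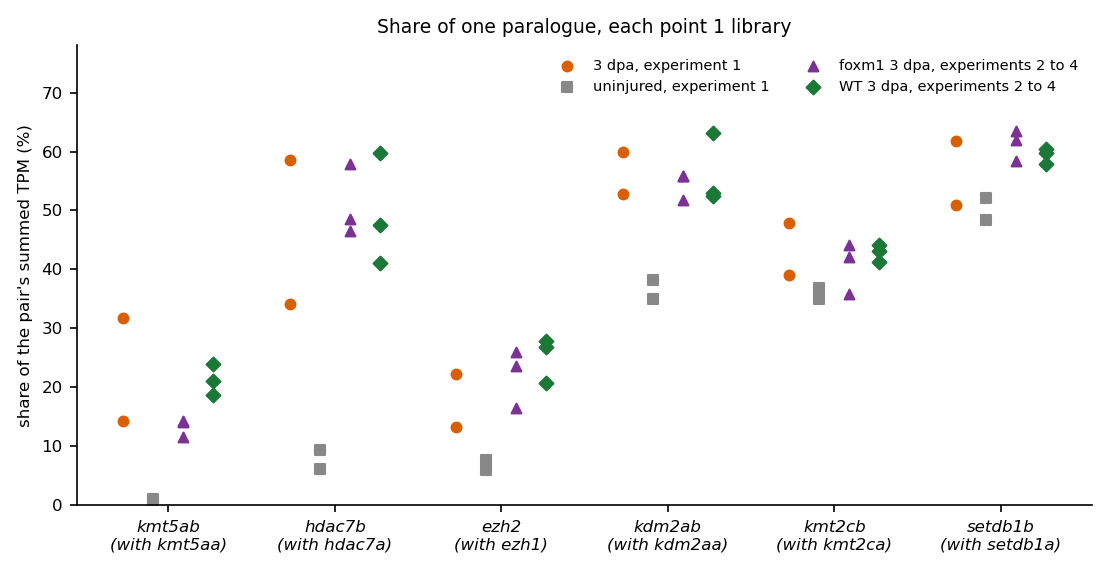
Share of the first-named gene in the summed TPM of a paralogue pair (y axis, percent), one point a library; orange circles are 3 dpa and grey squares uninjured ventricles of experiment 1, purple triangles are foxm1 mutant and green diamonds WT ventricles at 3 dpa of experiments 2 to 4. The grey squares lie below the orange circles for kmt5ab, hdac7b, ezh2, kdm2ab and kmt2cb, and for setdb1b 1 grey square (52.2%) lies above 1 orange circle (51.0%).

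Next in size was ezh2. This gene, the catalytic subunit of Polycomb repressive complex that predominates in dividing cells, had 8.15 and 11.7 CPM at 3 dpa, against 4.84 and 4.99 CPM uninjured. Its log2 fold change was 1.01 (SE 0.29, adjusted p = 0.151, edgeR). Its relative ezh1 lay on the other side, with 67.4 and 53.8 CPM at 3 dpa, against 73.7 and 94.3 CPM uninjured (log2 fold change −0.47, with overlap on TPM), and was the more abundant of the pair in every library. suv39h1b, an enzyme of H3 lysine 9 trimethylation in heterochromatin, had 7.85 and 12.02 CPM at 3 dpa, against 6.25 and 5.56 CPM uninjured (log2 fold change 0.75, SE 0.30, adjusted p = 0.251, edgeR). It overlaps tmem9 and cacna1sb, and the strand setting of the counting was not given in the sources used here. Its paralogue suv39h1a had 13 reads in the WT 3 dpa library of experiment 1 and at most 3 in any other, and together with setd1bb (at most 5 reads) did not pass the filter on low counts. dot1l, the only H3 lysine 79 methyltransferase gene, had 11.4 and 13.7 CPM at 3 dpa, against 16.1 and 15.9 CPM uninjured (log2 fold change −0.35, and 0.01 without TMM).

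Of the genes classed by name as H3 lysine 4 methyltransferases, kmt2a and setd1a lay below both uninjured libraries under all 3 scalings. After TMM 7 of 9 tested were below, 1 was above (kmt2cb, log2 fold change 0.28) and 1 overlapped, with a class median of −0.33. On TPM or by library size alone 2 were below, 1 was above and 6 overlapped. Over all genes 27.7% were below and 28.0% above after TMM, and 12.6% below and 44.9% above on TPM. kmt2a, homologue of the human leukaemia gene MLL, had 55.2 and 57.8 CPM at 3 dpa, against 88.4 and 102.7 CPM uninjured, a log2 fold change of −0.76 (SE 0.20, adjusted p = 0.139, edgeR). kmt2d and setd1a followed at −0.58 each, with 36.9 and 41.1 CPM against 54.6 and 61.8 CPM for kmt2d, and 35.2 and 33.7 CPM against 49.9 and 52.8 CPM for setd1a. All 3 remained negative without TMM scaling and in every fit that left out 1 library. The class summed to 58.4 and 71.6 TPM at 3 dpa, against 61.8 and 70.4 TPM uninjured, so that on the unscaled TPM the stages overlapped. Of 7 other setd genes 5 were lower in both libraries after TMM, against 1 on TPM (setd9), among them setd2, the enzyme of H3 lysine 36 trimethylation, at −0.37; none was higher after TMM and 1, setd6, on TPM.

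Of 20 demethylase genes, 2 were higher in both 3 dpa libraries after TMM, 9 lower, and 9 overlapped. Over all genes 28.0% were higher and 27.7% lower after TMM, 44.9% and 12.6% on TPM, and 45.8% and 12.4% by library size alone. On TPM 11 were higher, 1 (kdm6al) was lower and 8 overlapped, and by library size alone 12 were higher and 3 lower, so that of the 11 genes apart after TMM, kdm2ab, kdm6ba and kdm6al kept their side under all 3. kdm2ab, one of 4 genes for H3 lysine 36 demethylases of the Kdm2 family, had 42.1 and 66.0 CPM at 3 dpa, against 24.3 and 33.0 CPM uninjured (log2 fold change 0.92, SE 0.31, adjusted p = 0.191, edgeR), while its paralogues stood at −0.30 (kdm2aa), −0.11 (kdm2ba, which was higher on TPM) and −0.37 (kdm2bb). The other was kdm6ba, an H3 lysine 27 demethylase gene, with 44.4 and 41.0 CPM at 3 dpa, against 31.1 and 38.5 CPM uninjured (log2 fold change 0.29). Its paralogue kdm6bb overlapped, as did kdm1a, the flavin-dependent H3 lysine 4 demethylase LSD1, with 62.1 and 52.4 CPM at 3 dpa, against 57.8 and 55.8 CPM uninjured (log2 fold change 0.01). kdm6al, the other end of the class, stood at −0.57.

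The other deacetylases stood between −0.64 and 0.37, and the sirtuins between −1.01 and 0.12. Class I, which includes catalytic subunits of nuclear corepressor complexes, had hdac8_1 at 0.37 and hdac3 at 0.30, both higher in both libraries. hdac1 was at 0.15 with overlap (75.7 and 103.9 CPM at 3 dpa, against 75.3 and 86.1 CPM uninjured). On TPM hdac1 was higher in both libraries, with 24.6 and 40.8 TPM at 3 dpa, against 20.5 and 24.3 TPM uninjured. hdac8_2, the name of an adjoining gene in the files, is named phka1a, a phosphorylase kinase subunit, in the gene name reference, so its value (−0.09) may not be that of a deacetylase. hdac6, the cytoplasmic tubulin deacetylase, was at 0.34, and hdac11, the only class IV enzyme, at −0.64 (4.18 and 2.44 CPM at 3 dpa, against 5.34 and 4.94 CPM uninjured). Of 7 sirtuins, after TMM, 1 was higher in both libraries (sirt6, 0.12), 3 were lower and 3 overlapped, among them sirt1 (−0.17) and sirt2 (−0.03). Over all genes 28.0% were higher and 27.7% lower. sirt7, a nucleolar sirtuin, had the most negative value of the 66, −1.01 (SE 0.65), but its 6.47 CPM in the dusp6 mutant and 1.68 CPM in WT at 3 dpa, against 7.42 and 8.99 CPM uninjured, show a low WT library and a mutant library near the uninjured ones. The log2 fold change was −0.35 without the WT 3 dpa library and −2.26 without the dusp6 mutant one. The gene overlaps rbbp9 on the other strand, and 60.1% of its reads were placed uniquely.

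Partner proteins were counted from lists of chromatin genes. No gene of these lists passed the threshold, and neither did any other gene tested (0.00% of all genes higher and 0.00% lower). Counts of higher and lower genes are after TMM, followed by those by library size alone where given. Over all 20408 genes tested, 28.0% were higher and 27.7% lower after TMM. By library size alone these shares were 45.8% and 12.4%, and the counts of each list are to be read beside them. Of 9 genes of Polycomb repressive complex and its accessory proteins 4 were higher and 2 lower in both libraries (5 and 0 by library size), led by phf19, a subunit that guides the complex to chromatin, with 7.13 and 17.96 CPM at 3 dpa, against 2.05 and 2.43 CPM uninjured (log2 fold change 2.49, adjusted p = 0.102, edgeR). The lowest was suz12b, a core subunit, at −0.37. Of 21 deacetylase complex genes 2 were higher and 7 lower (9 and 2 by library size). rcor2, a scaffold that joins LSD1 to class I deacetylases, had 1.87 and 6.56 CPM at 3 dpa, against 0.214 and 0.232 CPM uninjured (log2 fold change 4.23, adjusted p = 0.0880, edgeR), and its relative rcor3 was lower, at −0.97. Of 18 other lysine methyltransferase genes 2 were higher and 7 lower (7 and 1 by library size). nsd2, an H3 lysine 36 dimethyltransferase, had 9.80 and 19.5 CPM at 3 dpa, against 5.23 and 5.99 CPM uninjured (log2 fold change 1.39, adjusted p = 0.149, edgeR), and the muscle enzyme smyd1b had the lowest value of this list, −1.32, with overlap. Of 15 histone acetyltransferase genes 1, hat1, was higher and 11 were lower (3 and 2 by library size), and ncoa2 was lowest at −0.82. Of 9 H3 lysine 4 complex partners 1 was higher and 3 lower (6 and 0 by library size), and their extremes were wdr5 at 0.47, which overlapped, and ash2l at −0.33. Of 8 arginine methyltransferases 0 were higher and 2 lower (1 and 0 by library size), with extremes of 0.42 for prmt3, which overlapped, and −0.57 for prmt2. Of 6 further genes listed as demethylases, whose activity was not assessed here, 0 were higher and 2 lower (2 and 0 by library size). The extremes, jmjd6 at 0.17 and riox2 at −0.47, both overlapped.

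At 7 dpa the means of kmt5ab and hdac7b were far below those at 3 dpa. Beside the authors' own fold changes and p-values, which were not used, the table for this stage gives 1 level a gene, the larger of the uninjured and the 7 dpa group mean in RPKM (a read count scaled by transcript length and library size). A 7 dpa level was therefore read only where it exceeded the uninjured one, as the authors' mean without a spread. The kmt5ab means were 0.119 RPKM uninjured, 4.41 RPKM at 3 dpa and 0.486 RPKM at 7 dpa, that is 37.1-fold and then 4.08-fold the uninjured mean, and the 7 dpa mean was 10.998% of the 3 dpa mean. For hdac7b they were 0.416, 4.03 and 0.504 RPKM, with a 7 dpa mean of 1.21-fold uninjured and 12.5% of that at 3 dpa. For ezh2, suv39h1b and kdm2ab, which rose less at 3 dpa, the 7 dpa mean was a larger share of the 3 dpa mean. That share includes the uninjured level, so a smaller rise at 3 dpa by itself makes it larger. ezh2 had 0.881, 2.35 and 1.62 RPKM, suv39h1b 1.31, 2.77 and 2.17 RPKM, and kdm2ab 2.98, 7.07 and 4.61 RPKM, so that 7 dpa means were 69.0%, 78.2% and 65.1% of those at 3 dpa. hdac1 stood at 11.53, 16.20 and 16.04 RPKM. Of 66 enzymes detected, 34 had a 7 dpa mean above uninjured (55.2% of all genes detected) and 4 of at least 1.5-fold, namely kmt5ab, ezh2, suv39h1b and kdm2ab (21.6% of all genes detected). RPKM carry no scaling between libraries: 39 of the 66 had a 3 dpa mean above uninjured on it, against 19 positive after TMM. Of these 39, 19 had a 7 dpa mean between those of uninjured and 3 dpa ventricles, and 15 of the 66 had their highest mean at 7 dpa. The shares of all genes for the counts of 39, 19 and 15 were not computed, so they do not set the enzymes apart from other genes. No test was run on the 7 dpa means. The 7 dpa samples carry no experiment number, so stage and experiment cannot be told apart there.

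**Figure D4:**
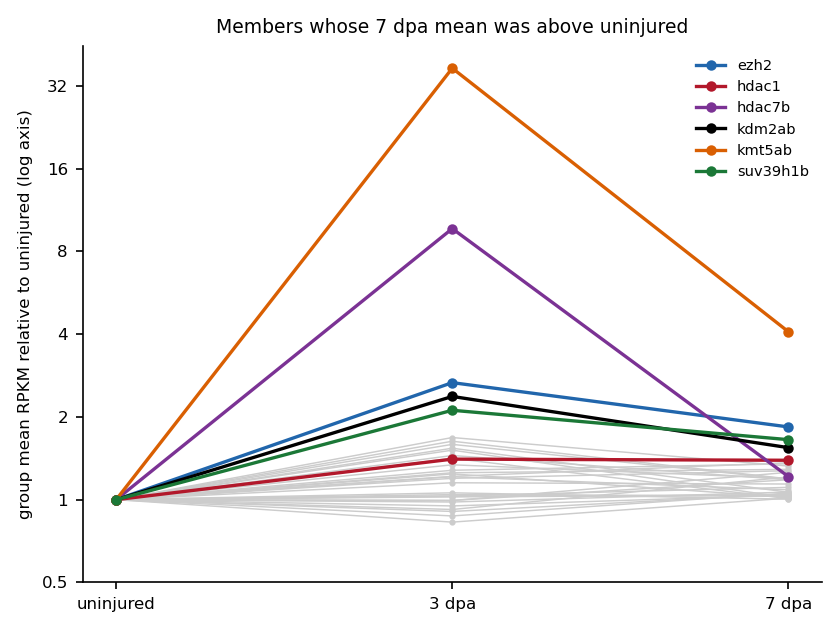
Group mean RPKM relative to the uninjured mean (y axis, log scale) in uninjured, 3 dpa and 7 dpa ventricles, for the 34 enzymes whose 7 dpa mean exceeded the uninjured one; coloured lines are 6 named genes and grey lines the others, with no error since 1 mean a stage was given. kmt5ab went through 37.1 and ended at 4.08, hdac7b through 9.69 to 1.21, and ezh2, suv39h1b and kdm2ab ended between 1.55 and 1.84.

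Which enzymes differ in foxm1 mutants was asked at 3 dpa, with 3 foxm1 mutant and 3 WT libraries. Differences between genotypes were small for most of them. Of 66 tested (of 17618 genes) 0 passed an adjusted p of 0.05 with a log2 fold change of 0.59 in size (0.00% of all genes higher and 0.0114% lower), and by DESeq2 and the likelihood ratio test also 0. The median difference was −0.01, and its median size was 0.089, against 0.133 over all genes. Log2 fold changes of at least 0.59 in size were 0 on the higher side (4.09% of all genes) and 2 on the lower (kmt5ab and kdm6ba; 3.82% of all genes). At an unadjusted p of 0.05, 1 was higher (kmt5c; 2.75% of all genes) and 3 lower (kmt5ab, kdm6ba and sirt4; 2.88% of all genes). After TMM, mutant and WT libraries did not overlap for 3 higher genes (kmt5c, setd4 and setd1a, 4.85% of all genes). The same held for 3 lower ones (kmt5ab, hdac10 and setd9, 4.38% of all genes). Summed cycling markers were 203, 229 and 335 CPM in foxm1 mutants and 259, 273 and 355 CPM in WT. Their median log2 fold change was −0.24, with 1 of 8 genes higher and none lower without overlap. This list includes the mutated gene foxm1 itself, whose TPM was higher in every mutant library than in any WT library.

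kmt5ab was lowest against WT among the non-overlapping genes. It had 3.18, 4.04 and 3.95 CPM in foxm1 mutants, against 5.79, 6.37 and 7.82 CPM in WT, every mutant value below every WT value. The log2 fold change was −0.84 (SE 0.20, adjusted p = 0.537, edgeR), from 58, 74 and 85 reads in mutants and 100, 109 and 144 reads in WT. Over 19 alternative settings it ran between −1.08 and −0.67, with adjusted p between 0.0632 and 1. kmt5aa did not share this difference, at 37.8, 37.9 and 35.5 CPM in mutants and 38.1, 35.7 and 37.8 CPM in WT, and the share of kmt5ab in the pair was 11.5%, 14.3% and 14.2% in mutants, against 18.8%, 21.0% and 23.96% in WT. kmt5c differed in the other direction, with 44.6, 39.5 and 35.3 CPM in mutants, against 31.7, 28.1 and 34.8 CPM in WT (log2 fold change 0.34, adjusted p = 0.854, edgeR). hdac7b overlapped fully, at 27.9, 29.0 and 23.2 CPM in mutants and 19.4, 22.9 and 39.8 CPM in WT (log2 fold change −0.04, SE 0.26), where the WT library of experiment 4 alone was high. ezh2 gave 16.3, 11.5 and 13.2 CPM in mutants and 17.8, 16.9 and 12.3 CPM in WT (log2 fold change −0.20). The remaining genes without overlap after TMM differed by less: setd4 by 0.31, setd1a by 0.21, hdac10 by −0.19 and setd9 by −0.33. On TPM setd1a and setd9 overlapped. setd1a had 10.5, 9.98 and 8.71 TPM in mutants, against 8.01, 8.04 and 8.93 TPM in WT. setd9 had 2.01, 1.83 and 2.37 TPM in mutants, against 2.40, 1.71 and 2.16 TPM in WT. The setd9 values rest on 29, 31 and 33 reads in mutants and 35, 31 and 41 reads in WT. Of the 9 H3 lysine 4 methyltransferases 8 were positive, the largest kmt2a at 0.29, whose 134.8 CPM in the foxm1 mutant of experiment 3 stood above the other 2 mutants (88.1 and 71.3 CPM) and WT (76.4, 76.7 and 87.0 CPM). That library also had the highest summed macrophage, neutrophil and T cell markers of the 6 (1181, 140 and 17.0 CPM, and in the other mutants at most 853, 80.6 and 7.70 CPM, in WT at most 870, 80.4 and 7.64 CPM), and their part in the value was not tested.

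kdm6ba, named here after its values were seen, had the most negative difference but rested on which WT library was counted. The mutants were at 49.6, 48.5 and 48.5 CPM, and WT at 116, 141 and 42.4 CPM, so that experiments 2 and 3 differed more than 2-fold between genotypes and experiment 4 did not. The log2 fold change was −1.03 (SE 0.37, adjusted p = 0.772, edgeR). Without the WT library of experiment 4 it was −1.39 with an adjusted p of 0.00648, the only enzyme called (0.690% of all genes were called lower), and without experiment 4 in both genotypes −1.39 with 0.0140 (0.753% of all genes). Without the WT libraries of experiments 2 and 3 it was 0.20. In experiment 1 it was at 44.4 and 41.0 CPM at 3 dpa. kdm7aa, another demethylase gene, had the same order of WT libraries, with 16.7, 9.76 and 14.7 CPM in mutants, against 21.0, 26.2 and 9.84 CPM in WT.

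**Figure D5:**
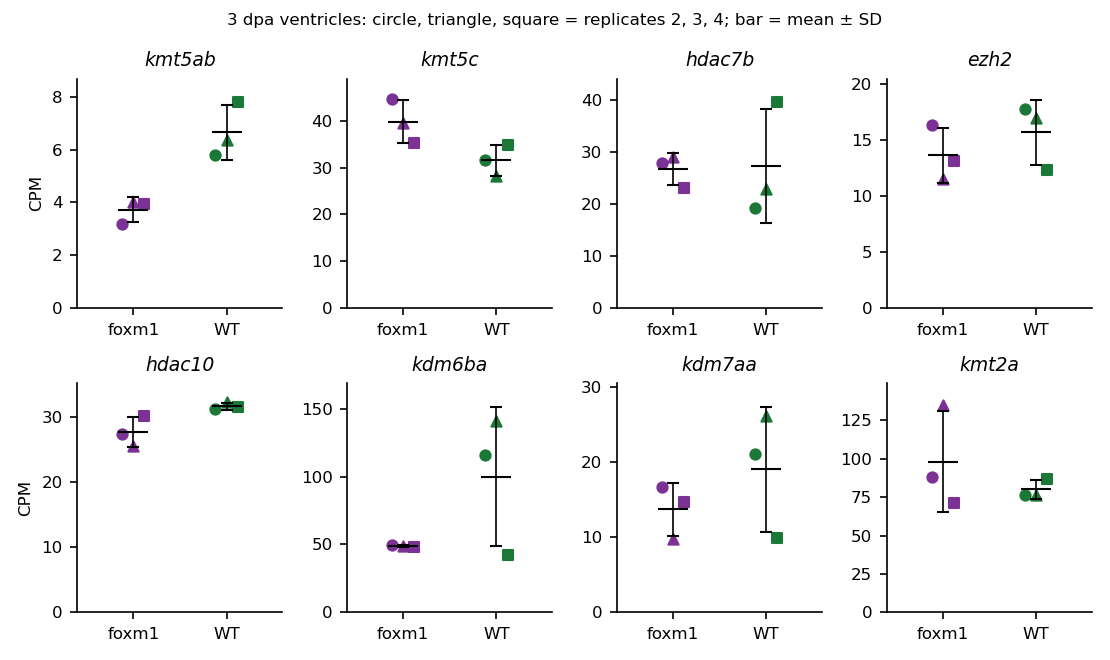
CPM of 8 enzymes in 3 dpa ventricles of foxm1 mutants (purple, left) and WT (green, right), each point 1 library (circle, triangle and square for experiments 2, 3 and 4) and the bars mean ± SD (n = 3). kmt5ab is the one panel with all mutants (3.18 to 4.04 CPM) far below all WT libraries (5.79 to 7.82 CPM), and in the kdm6ba panel the WT library of experiment 4 (42.4 CPM) lies with the mutants.

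The dusp6 mutant was set against WT over both stages of experiment 1, with 2 libraries each. Of 66 tested 0 passed an adjusted p of 0.05 (0.00% of all genes in either direction). At an unadjusted p of 0.05, 3 were higher (hdac10, sirt3 and kdm2bb; 3.92% of all genes) and 2 lower (kdm2ab and kdm6bb; 3.97% of all genes), and DESeq2, the likelihood ratio test and the fit over all libraries each called 1, hdac10 (0.735%, 0.843% and 0.271% of all genes called higher). In both stages 15 were higher and 18 lower in the mutant after TMM (28.7% and 29.4% of all genes). Signs moved with the scaling, with 26 positive and 40 negative after TMM, against 16 and 50 by library size alone. Of all genes 50.7% were negative after TMM and 63.4% by library size alone. The largest difference was that of hdac10, homologue of the human polyamine deacetylase HDAC10, with 28.8 CPM uninjured and 30.0 CPM at 3 dpa in dusp6 mutants, against 10.7 CPM uninjured and 11.2 CPM at 3 dpa in WT (log2 fold change 1.42, SE 0.21, adjusted p = 0.353, edgeR). The mutant value exceeded the WT value at either stage, and the log2 fold change of 3 dpa over uninjured was 0.06. Yet in experiments 2 to 4 hdac10 was at 19.7, 18.3 and 21.0 TPM in foxm1 mutants and 21.8, 22.8 and 21.9 TPM in WT, near the 15.2 and 19.6 TPM of the dusp6 mutants and above the 5.62 and 9.17 TPM of WT in experiment 1. WT libraries of different experiments thus differed by about as much as the genotypes, and genotype and the fish pooled for each library cannot be told apart. hdac10 (GRCz11 chromosome 25, 5015019 to 5033064, plus strand) lies on the chromosome of dusp6, 13.3 megabases away. The members setd6 and kdm7ab lie nearer to dusp6, at 0.977 and 1.082 megabases, and their log2 fold changes were −0.18 and 0.24.

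sirt3, a mitochondrial deacetylase, had 28.4 CPM uninjured and 28.3 CPM at 3 dpa in dusp6 mutants, against 21.1 CPM uninjured and 11.4 CPM at 3 dpa in WT (log2 fold change 0.87, adjusted p = 0.608, edgeR). kdm2bb had 28.6 and 23.8 CPM in dusp6 mutants, against 19.7 and 13.7 CPM in WT (log2 fold change 0.67), and its relative kdm2ab differed in the other direction, with 24.3 and 42.1 CPM in dusp6 mutants, against 33.0 and 66.0 CPM in WT (log2 fold change −0.55). kdm6bb, the abundant H3 lysine 27 demethylase gene, was at 76.4 and 77.8 CPM in dusp6 mutants, against 117.6 and 114.2 CPM in WT (log2 fold change −0.59), and hdac12, whose role is not given here, at −0.60. Further down the list were hdac11 (0.44), hdac9b (0.43), setd7 (0.41), sirt1 (0.34) and setd4 (0.25) on the higher side, and setdb1b (−0.41), hdac1 (−0.32) and kdm7aa (−0.30) on the lower. kmt5ab (−0.61) and hdac7b (−0.54) were higher in the mutant without injury and lower at 3 dpa, so their genotype groups overlapped. Of the partner lists, 7 of 8 arginine methyltransferase genes were lower in the mutant at both stages after TMM and 0 higher, with prmt5 at −0.69. Over all genes 29.4% were lower and 28.7% higher. Other lists went either way. Higher and lower were 7 and 2 of 15 acetyltransferases, 6 and 11 of 21 deacetylase complex genes, and 4 and 6 of 18 other lysine methyltransferases. They were 3 and 4 of 9 Polycomb genes, 3 and 3 of 9 H3 lysine 4 partners, 2 and 1 of 6 further listed demethylases, and 2 and 0 of 6 mef2 genes. Among the other lysine methyltransferases smyd1b was lowest at −1.25. No list held a gene past the threshold, which 0.00% of all genes passed in either direction.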

How the data were processed

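Ventricles were sequenced in 10 libraries, and the authors mapped reads to zebrafish GRCz11 in CLC Genomics Workbench 20. Deposited per gene were read counts (total, exon, intron and unique), TPM and RPKM. The authors' comparison tables gave the larger group mean in RPKM, used here for 7 dpa; their fold changes and p-values were not used. Total gene read counts were tested with edgeR 4.0.16 (R 4.3.3): TMM scaling, a filter at 10 counts in enough libraries and 15 in all, quasi-likelihood tests over all genes and Benjamini-Hochberg adjustment. Genes were called at an adjusted p of 0.01 (injury) or 0.05 (genotypes) and a log2 fold change of 0.59 in size. SE is the log2 fold change divided by the root of F. Alternatives were DESeq2 1.42.0, limma 3.58.1 on log2 TPM with a pseudocount of 1 or 0.1, other scaling, filters and counts, a block, and each library left out. The tests across genes were first tested on simulated data. Members, lists and tests were chosen with earlier results of these data known. Named genes were the kmt5 and class IIa genes, the 8 highest and 6 lowest non-overlapping members of a comparison, called members, ezh1, ezh2, suv39h1a, suv39h1b, dot1l, kdm1a, hdac1, hdac3, sirt1, the 5 most abundant in uninjured ventricles and the extremes of each partner list; others named were chosen after their values were seen. Of 68 IDs 24 had the same symbol in the gene name reference and 44 another form. No sequence or coordinate came from another build.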

Additional observations from a re-analysis of the deposited data

Results flagged for a closer look

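In experiment 1, 11 comparisons pointed in opposite directions in 2 groups, each by at least 0.2 on the log2 scale and with 1 library on each side. None of these differences was tested, and no share of all genes was computed at this size. Without a size limit, 3 dpa over uninjured had the same direction in both genotypes for 80.3% of the enzymes and 72.6% of all genes. For 8 genes the ratio of dusp6 mutant to WT changed sign between stages. The ratio at 3 dpa minus that in uninjured ventricles, on the log2 scale, was −2.05 for hdac7b and −1.48 for kmt5ab, both lower in the mutant at 3 dpa only. It was 2.22 for sirt7, 1.02 for setd9, 0.68 for ezh1, 0.52 for sirt2, 0.50 for kdm8 and 0.45 for setd1ba, which were higher in the mutant at 3 dpa only. The uninjured kmt5ab ratio rests on 17 reads in the mutant and 15 in WT. For 3 genes 3 dpa over uninjured had another sign in each genotype, and the log2 ratio in dusp6 mutants minus that in WT was 0.48 for kdm7aa, 0.52 for sirt2 again and −0.66 for setd6.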

How the results depend on the processing

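Called enzymes at 3 dpa numbered 2 (kmt5ab and hdac7b) by DESeq2, by the likelihood ratio test and with all 10 libraries. Of all genes 6.17%, 5.50% and 5.94% were called higher there, and 1.36%, 0.755% and 1.14% lower. Leaving out 1 library left a stage with 1 library, so only the effect size is given. The log2 fold change of kmt5ab then ran from 4.09 to 5.32, highest without the dusp6 mutant 3 dpa library. For foxm1 1 was called (kdm6ba) without experiment 4 in both genotypes, and 0 to 1 when 1 library was left out; for dusp6 1 (hdac10) by DESeq2, the likelihood ratio test and the fit of all libraries. Near 0, signs turned at 3 dpa with log2(TPM + 1), log2(TPM + 0.1) and library size alone: kmt5aa 0.13, 0.14 and 0.11; kmt5b 0.29, 0.31 and 0.30; sirt1 0.14, 0.16 and 0.17; sirt2 0.31, 0.32 and 0.31; kdm6bb 0.35, 0.36 and 0.36; dot1l 0.00087 with log2(TPM + 1) and 0.014 with library size. Leaving out 1 library gave −0.10 to 0.12 for kdm1a, −0.18 to 0.13 for sirt2, −0.32 to 0.32 for kdm6bb, −0.34 to 0.0010 for sirt1, −0.023 to 0.30 for hdac4 and −0.10 to 0.39 for hdac1. In dusp6 mutants against WT it gave −1.19 to 0.30 for kmt5ab and −1.51 to 0.54 for hdac7b, values without a test. For foxm1, hdac7b ran from −0.24 to 0.34 when 1 library was left out and was 0.43 without experiment 4, and without WT replicates 2 and 3 hdac7b was −0.59 and kdm6ba 0.20. The cause was not tested. With the replicate number as a block hdac7b was 0.028, 0 enzymes were called and 1 gene of all was lower (0.00568%); libraries of the same experiment number correlated at 0.086, −0.036 and 0.126, and whether they were handled together is not given in the sources used here. Library size alone and orders on TPM were added after seeing the data. Enzymes whose stages did not overlap numbered 52 to 61 without 1 library, where 1 of the stages held only 1 library. Of all genes 36.5% to 42.8% were then higher and 37.0% to 41.5% lower, against 28.0% and 27.7% with no library left out. Depth limits kmt5ab most, with 15 and 17 reads in uninjured ventricles.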
